A study of Saccharomyces cerevisiae with 10 samples.

Results

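The comparison described here covers the later stretch of recovery from salt stress in budding yeast: Sample E, taken 2 to 3 generations after cells had been returned from 1 M KCl to KCl-free medium, set against Sample D, taken 1 h after that return. The members were chosen by sample label, as all arrays labelled after stress recovery and all arrays labelled during stress recovery. They are 4 of the 10 arrays of the series, 2 per group, and were compared over 5449 *Saccharomyces cerevisiae* genes. Every culture was grown in YPD, a rich glucose medium, at 30 °C. The other samples of the growth regime were normal growth before stress (Sample A), 1 h after the addition of KCl to 1 M (Sample B), and growth in 1 M KCl after adaptation (Sample C). Samples D and E therefore share a history of growth in KCl and a transfer by pelleting into medium without it, and differ in the time since that transfer. The labels name the genetic background BQS1350, whereas the methods of the study describe a haploid By4742 strain of mating type alpha with a myc tag on Gcn5, a histone acetyltransferase. All arrays come from this 1 background. The replicates were grown as different culture batches. The number on an array (D1, E1 and so on) was taken here to name its batch across the samples, and differences given by batch or replicate rest on that reading.

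Budding yeast meets high salt through the Hog1 kinase, which drives glycerol synthesis, and through the transcription factors Msn2 and Msn4, which turn on a general stress program that includes trehalose and glycogen metabolism. Glucose supply sets which hexose transporters are made: Mth1, with Rgt1, represses *HXT* genes when glucose signalling is low, and high-affinity carriers such as Hxt7 and Hxt4 are replaced by low-affinity ones when glucose is plentiful. When a cell divides, glucanases and chitinase cut the septum between mother and daughter. Aft1 and Aft2 control the genes for iron uptake.

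From Sample D to Sample E the transcripts that stood lower were led by high-affinity glucose transport and glycogen metabolism (*HXT7*, *GSY1*, *HXT4*, *MTH1*, *GPH1*, *GLC3*) and by stress genes such as *TMA10*. Those that stood higher were led by *BSC1*, by iron-uptake genes (*ARN2*, *FIT1*, *FIT2*, *FIT3*) and by genes of daughter-cell separation (*SFG1*, *DSE4*). On the log2 scale the largest measured difference on the lower side was -2.96, for *HXT7*. On the higher side *BSC1* differed by at least 1.57 (2.11 as measured, with both D arrays below background) and *ARN2* by 1.71. With limma over all 10 arrays, no gene of 5449 passed an adjusted p of 0.05 (0%), the lowest adjusted p being 0.548, and 213 genes had an unadjusted p under 0.05, 167 of them higher and 46 lower in Sample E. With the replicate number as a block, 1 gene (0.0184%), *BSC1*, rose, and 451 genes had an unadjusted p under 0.05. Each group holds 2 arrays, and an exact permutation test of 2 against 2 cannot go below a two-sided p of 0.333. Except for *BSC1*, the values below are therefore measured differences that were not past the test.

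The whole distribution of log2 values was shifted between the groups. The array medians were 9.59 and 9.69 in Sample D and 9.73 and 10.08 in Sample E, and the median difference over all genes was 0.25, with 0.10 in replicate 1 and 0.40 in replicate 2. After each array had been centred on its own median this shift was -0.01. Hybridisation controls, which are spiked in at fixed amounts, did not shift equally: between D2 and E2, Ec-bioB went from 8.49 to 8.76 and P1-cre from 13.70 to 13.73. Centred medians are accordingly given beside the plain ones for most of the gene lists described. For single genes the differences are plain unless marked as centred, and so include this shift. *HXT7*, for example, differed by -2.96 plain and -3.22 centred, and *ARN2* by 1.71 and 1.44. A bulk array measures a share of the total RNA of a culture, so fewer cells of a type and less RNA per cell cannot be told apart.

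At a difference of 1.8-fold or more between group means, 72 genes stood lower (1.32%) and 56 higher (1.03%) in Sample E. After median centring the split was 116 lower and 16 higher. Leaving out 1 of the 4 arrays moved these counts: without D1, D2, E1 or E2 there were 115, 45, 43 and 133 genes lower and 93, 137, 249 and 29 genes higher. The groups did not overlap for 63 of the 72 and 54 of the 56 genes, against 3.08% of all genes with both E arrays below both D arrays and 47.9% with both above. On centred arrays the corresponding shares of all genes were 22.3% and 18.6%. The 72 genes moved by a like amount in both batches (median -1.28 and -1.29), whereas the 56 genes moved less in replicate 1 (0.73) than in replicate 2 (1.28). These medians are plain and include the unequal shift over all genes, 0.10 in replicate 1 and 0.40 in replicate 2, so this contrast depends on the scaling. The genes just inside and just outside the limit were *GCY1* and *PNC1* on the lower side, both at -0.85, and *VIK1* and *OSH6* on the higher side, both at 0.85.

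**Figure D1:**
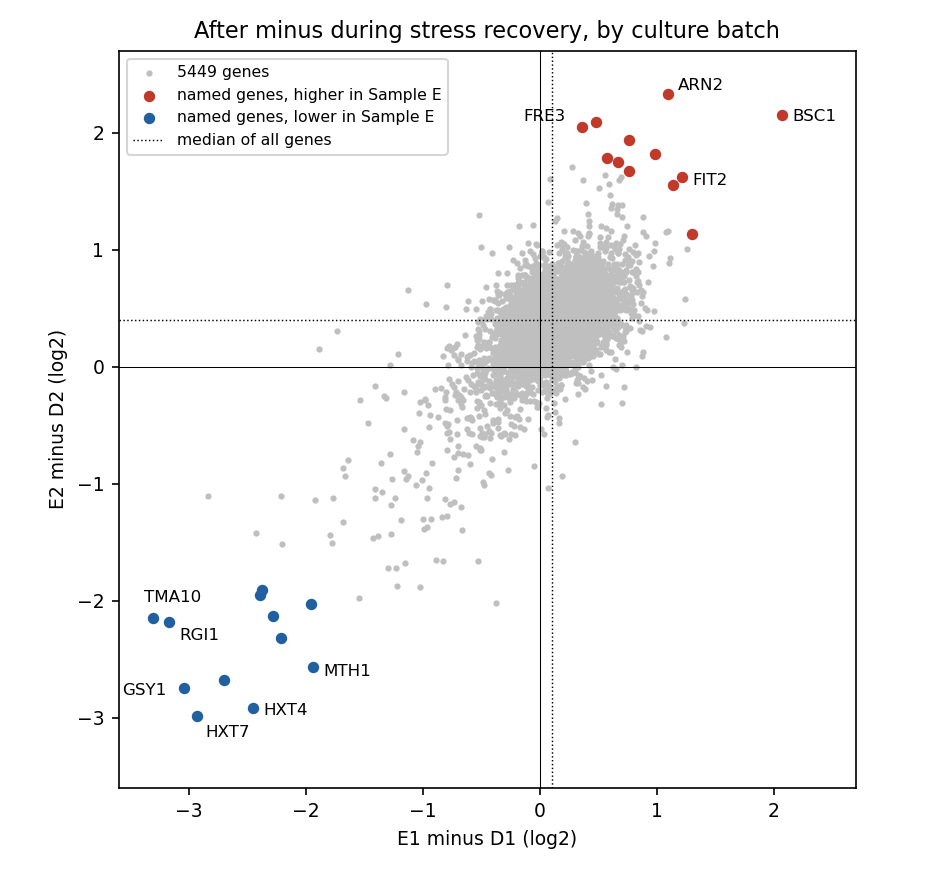
Difference between Sample E and Sample D on the log2 scale for 5449 genes, with the batch labelled replicate 1 on the x axis and replicate 2 on the y axis. Coloured points are the 24 named genes and dotted lines mark the medians of all genes, 0.10 and 0.40; the genes lower in Sample E lie far from the bulk in both batches, and of the 12 named genes that stood higher, *BSC1* moved almost equally in both batches, *FIT3* somewhat more in replicate 1 and the others more in replicate 2.

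The widest difference of all was in hexose transport. *HXT7* encodes a high-affinity glucose carrier. Its log2 values were 11.90 and 12.46 in D1 and D2 and 8.97 and 9.48 in E1 and E2. The groups were far apart, and the difference was -2.96 ± 0.77 (SE), or 7.77-fold lower (limma adjusted p = 0.853; 0.597 with the replicate block). The probe set for *HXT7* can match several transcripts, and the near-identical *HXT6* has no probe set of its own here, so the value may belong to both. *HXT4*, another carrier made at low glucose, read 11.27 and 11.86 in Sample D and 8.82 and 8.94 in Sample E. The E arrays lay close together, well below both D arrays, with a difference of -2.68 ± 1.15 (SE; adjusted p = 0.853).

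*MTH1*, the repressor partner of Rgt1, followed the same order. It measured 8.83 and 9.94 in Sample D and 6.89 and 7.38 in Sample E, a difference of -2.25 ± 0.74 (SE; adjusted p = 0.853). These 3 genes were the only ones of the 20 measured transporters, sensors and regulators of the list to stand 1.8-fold or more lower, and none stood 1.8-fold or more higher. The list's median was -0.02, or -0.29 on centred arrays. The abundant low-affinity carriers were nearly level: *HXT1* differed by 0.19 ± 0.25 and *HXT3* by -0.06 ± 0.26 (SE). *HXT2*, which is not 1 of these low-affinity carriers, was bright as well, with values of 13.31 to 13.57 on the 4 arrays. It differed by only -0.22, so not every carrier outside the low-affinity group stood far lower. At the other end of the list stood *RGT2*, which encodes the low-affinity glucose sensor, at 7.88 and 7.90 in Sample D and 8.63 and 8.77 in Sample E (0.81 ± 0.35 SE, adjusted p = 0.853).

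The course over the whole regime set the batches apart for the transporters. In replicate 1 *HXT4* was already at 10.41 in Sample A, 11.98 in Sample B and 10.35 in Sample C, and in replicate 2 it was at 8.65, 8.67 and 7.51. For *HXT4* the batches came closest to each other in Samples D and E. *MTH1* showed a similar spread in KCl, with 10.31 and 7.92 in Sample B. Such gaps between batches at other points enter the shared estimate of spread, and with it the SE of *HXT4* and *MTH1*.

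**Figure D2:**
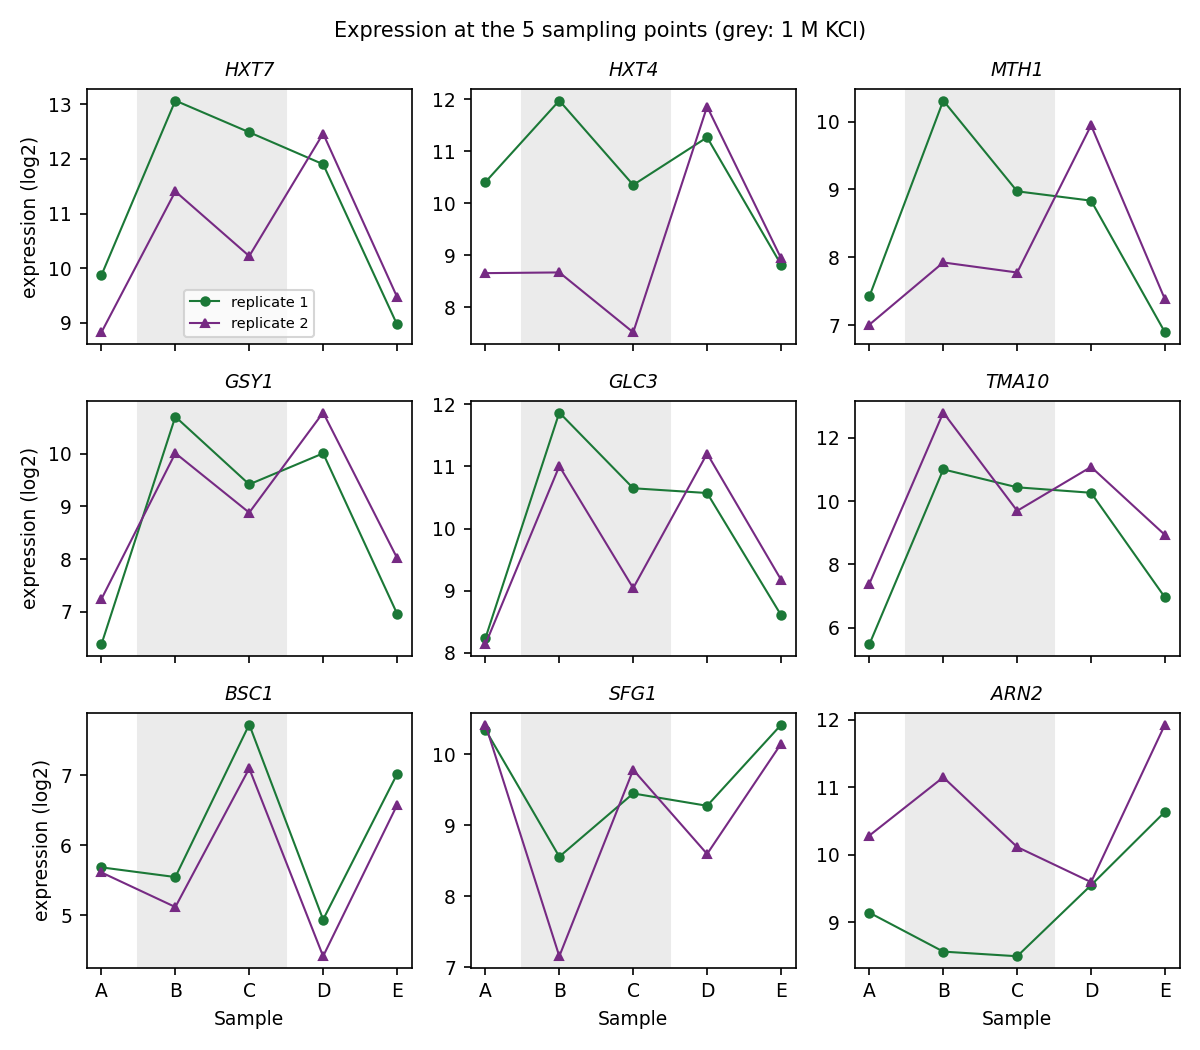
Log2 expression of 9 genes at the 5 sampling points A to E, with 1 line per culture batch and grey shading over the samples in 1 M KCl; each panel has its own y axis. *HXT7*, *HXT4*, *MTH1*, *GSY1*, *GLC3* and *TMA10* lie lower at E than at D in both batches, while *BSC1*, *SFG1* and *ARN2* lie higher, *BSC1* going from 4.94 and 4.42 to 7.01 and 6.57.

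Glycogen metabolism held the gene with the second widest difference. *GSY1*, a glycogen synthase, measured 10.004 and 10.78 in Sample D and 6.97 and 8.02 in Sample E. The groups did not overlap, which the choice of named genes required. The difference of -2.89 ± 0.47 (SE) was 7.43-fold (limma adjusted p = 0.548, and 0.435 with the replicate block). Without both Sample B arrays, which were the least alike of the series, *GSY1* passed the test as a fall (adjusted p = 0.0383). *GPH1*, the phosphorylase that releases glucose from glycogen, read 9.40 and 10.24 against 7.02 and 8.33. The branching enzyme *GLC3* read 10.57 and 11.21 against 8.61 and 9.18. In both genes every E array lay below every D array, which the choice of named genes again required. The means differed by -2.15 ± 0.49 and -1.99 ± 0.52 (SE, both limma adjusted p = 0.853).

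Of the 12 measured genes of glycogen synthesis and breakdown, 6 stood 1.8-fold or more lower (1.32% of all genes), the same number had both E arrays below both D arrays (3.08% of all genes), and none stood 1.8-fold higher. The other members past that size were *GAC1*, which targets a phosphatase to glycogen synthase (-1.55), the second synthase *GSY2* (-1.30) and the glycogenin *GLG1* (-1.12). The debranching enzyme *GDB1* differed by 0.02, and the glycogenin *GLG2* by 0.47. The list's median was -0.63, or -0.90 on centred arrays, beside 0.25 and -0.01 over all genes. It ranged from -0.91 without D1 to -0.30 without E1.

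Trehalose genes differed less. *PGM2*, the phosphoglucomutase that feeds both reserve sugars, read 9.77 and 10.72 in Sample D and 7.98 and 9.28 in Sample E (-1.62 ± 0.71 SE). *TSL1* and *TPS2*, subunits of the trehalose synthase complex, differed by -1.27 and -1.18, and the catalytic subunit *TPS1* by -0.47. The median of the 10 genes was -0.24 (centred -0.51), and it changed sign to 0.05 without E1 and to 0.03 without D2.

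Stress genes made up a further group of lower transcripts. *TMA10*, which encodes a protein found with the translation machinery, read 10.26 and 11.08 in Sample D and 6.95 and 8.93 in Sample E. The groups did not overlap, by the rule that chose the gene, although the E arrays themselves were further apart than the D arrays. The difference was -2.73 ± 0.85 (SE, limma adjusted p = 0.853). *YNL194C*, a membrane protein of the eisosome family, read 8.77 and 8.74 against 6.39 and 6.79 (-2.17 ± 0.71 SE). *DDR2*, induced by many stresses, read 10.46 and 11.53 against 8.03 and 10.11, a gap between E1 and E2 that was wider than the distance from E2 to D1.

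Of 27 osmotic stress and Hog1-dependent genes, 13 stood 1.8-fold or more lower (1.32% of all genes), 12 had both E arrays below both D arrays (3.08% of all genes) and none stood 1.8-fold higher. The list's median was -0.67 (centred -0.94). It was -0.25 without D2 and -0.17 without E1, so its size rested on single arrays. Of 17 small stress and hydrophilin genes, 8 stood 1.8-fold or more lower (1.32% of all genes), with a median of -0.79 (-0.40 without E1, -0.43 without D2 and -1.35 without E2). *DDR2*, *HSP12*, *RTC3*, *MSC1* and several others stand in both lists, so the lists are not independent of each other.

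Members of these lists followed different courses. *GRE2*, a reductase that Hog1 induces, read 12.78 and 13.06 in Sample C, 10.23 and 11.42 in Sample D and 10.63 and 11.52 in Sample E, and *SIP18*, a hydrophilin, read 8.84 and 8.69, then 4.96 and 6.09, then 4.84 and 6.66. For these genes the D and E arrays overlapped (differences of 0.25 and 0.23). *STL1*, the glycerol importer, went from 10.71 and 11.41 in Sample C to 7.31 and 8.34 in Sample D and 5.88 and 6.87 in Sample E (-1.45 ± 0.82 SE). *HSP12*, a membrane-stabilising stress protein, still read 10.25 and 12.50 in Sample E against 7.38 and 8.09 in Sample A, and its E arrays overlapped the D arrays at 11.79 and 12.78. *GPD1* and *GPP2*, the glycerol-synthesis enzymes, differed by -0.52 and -0.23.

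The remaining named lower genes stand in no list. *RGI1*, a gene induced in respiratory growth, read 12.52 and 12.83 in Sample D and 9.34 and 10.65 in Sample E (-2.68 ± 0.62 SE). *MPC3*, the subunit of the mitochondrial pyruvate carrier used in respiration, read 9.38 and 10.38 against 7.09 and 8.26 (-2.20 ± 0.57 SE). *ISF1* read 8.97 and 9.22 against 6.27 and 6.54 (-2.69 ± 1.13 SE), and the uncharacterised *YKR075C* 11.07 and 11.52 against 8.87 and 9.20 (-2.27 ± 0.91 SE). By the rule that chose them, none of these 4 genes had overlapping groups. Over the 38 measured genes of the respiratory chain and ATP synthase the difference was small (median 0.07, centred -0.19), with only the stress-induced cytochrome c isoform *CYC7* 1.8-fold or more lower (-1.53).

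**Figure D3:**
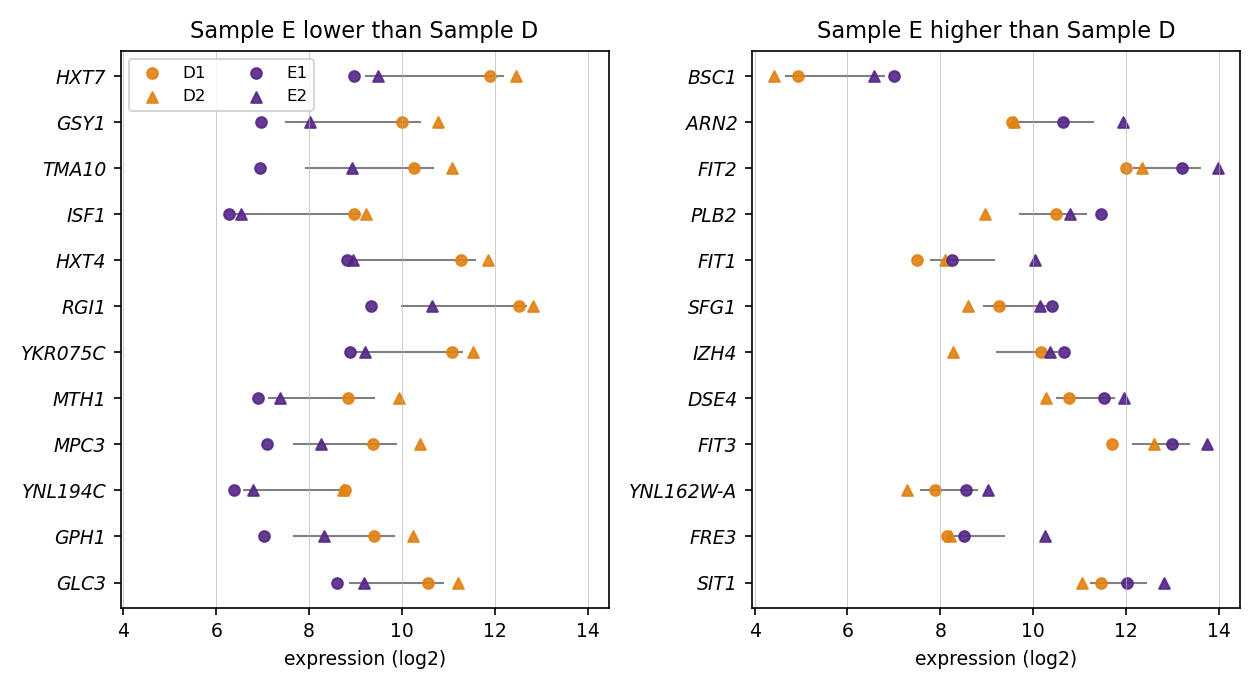
Log2 expression of the 24 named genes on the 4 arrays of the comparison: orange for Sample D, purple for Sample E, circles for replicate 1 and triangles for replicate 2, with a grey line joining the group means. By the rule that chose them the groups do not overlap, and the measured distance ranges from -2.96 for *HXT7* to 2.11 for *BSC1*, whose D values lie below background.

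*BSC1* was the only gene to rise, and it did so in the fit with the replicate block. It encodes a protein similar to the flocculin Flo11 and was named for a bypass of a stop codon. Its log2 values were 4.94 and 4.42 in D1 and D2 and 7.01 and 6.57 in E1 and E2. The rise was nearly equal in the batches, 2.07 and 2.15. With the replicate block its SE was 0.22 in place of 0.32 and its limma adjusted p 0.0427 in place of 0.548. Both D values lay below the background level of other-species probe sets on those arrays (5.31 and 5.13). Against that floor *BSC1* was at least 2.97-fold higher in Sample E, and the measured difference of 2.11 corresponds to 4.33-fold.

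The path of *BSC1* alternated with the medium changes. It read 5.68 and 5.61 in Sample A, 5.55 and 5.12 in Sample B, and 7.72 and 7.09 in Sample C. Its values were low in both samples taken 1 h after a change of medium and high in the later sample of each phase. The 5 flocculin genes measured with it, *FLO1*, *FLO8*, *FLO9*, *FLO10* and *FLO11*, differed between Samples D and E by 0.26, 0.20, 0.01, -0.00 and 0.09.

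Iron uptake was the list with the highest median. Of 32 genes of the iron regulon, 27 had both E arrays above both D arrays, against 47.9% of all genes, and on centred arrays 21 did, against 18.6%. Of these genes 10 stood 1.8-fold or more higher (1.03% of all genes), although *FRE5*, 1 of them, was below the background level in both groups. The list's median was 0.69 (centred 0.42), with 0.34 in replicate 1 and 0.96 in replicate 2, and it was 0.42 without E2. No member passed the test.

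The siderophore transporter *ARN2* read 9.55 and 9.59 in Sample D and 10.64 and 11.93 in Sample E. The difference was 1.71 ± 0.86 (SE; adjusted p = 0.853), with 1.09 in replicate 1 and 2.33 in replicate 2. *SIT1*, a transporter of the same family, read 11.45 and 11.04 against 12.02 and 12.82 (1.18 ± 0.79 SE). *FIT1*, *FIT2* and *FIT3* encode wall mannoproteins that retain siderophore iron. *FIT2* read 11.99 and 12.35 against 13.20 and 13.97 (1.42 ± 0.78 SE), and *FIT1* and *FIT3* differed by 1.35 ± 0.70 and 1.21 ± 0.96.

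The reductase *FRE3* showed the batch difference most plainly, with 0.36 in replicate 1 and 2.05 in replicate 2. The regulators themselves stood higher too, *AFT1* by 0.77 (centred 0.51) and *AFT2* by 0.66 (centred 0.40). Both E arrays lay above both D arrays in each case, as in 47.9% of all genes. The high-affinity oxidase and permease pair *FET3* and *FTR1* differed by 0.38 and 0.71 (centred 0.11 and 0.44). Normal growth did not set a single reference level for this list: *FIT2* read 10.43 and 13.08 and *SIT1* 9.46 and 11.84 in the 2 arrays of Sample A, a gap between batches wider than that between Samples D and E.

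Genes of daughter-cell separation also stood higher. *SFG1*, a putative transcription factor of pseudohyphal growth, read 9.27 and 8.60 in Sample D and 10.41 and 10.15 in Sample E. The batches moved by 1.14 and 1.55, and the difference was 1.34 ± 0.44 (SE; adjusted p = 0.853). *DSE4*, the daughter-specific glucanase that opens the septum, read 10.76 and 10.28 against 11.52 and 11.95 (1.22 ± 0.44 SE). *SCW11*, a wall glucanase-like protein, and *DSE1* differed by 1.07 and 1.02. Of 12 genes measured, 10 had both E arrays above both D arrays and 5 on centred arrays, against 47.9% and 18.6% of all genes. At 1.8-fold or more higher stood 5, against 1.03% of all genes. The list's median was 0.54 (centred 0.27), and 0.80 without D1. The abundant chitinase *CTS1* differed by 0.37.

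The remaining named genes that stood higher belong to no shared list. *PLB2*, a phospholipase B, read 10.48 and 8.97 in Sample D and 11.46 and 10.79 in Sample E (1.40 ± 0.94 SE). *IZH4*, a membrane protein of zinc homeostasis, read 10.17 and 8.28 against 10.66 and 10.36 (1.28 ± 0.79 SE). For both, D2 was much lower than D1, and the groups were separated by less than the D arrays were. The uncharacterised *YNL162W-A* read 7.88 and 7.28 against 8.55 and 9.03 (1.21 ± 0.49 SE).

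Growth and division genes differed by less. Of 38 G1/S cyclin and DNA replication genes, 28 had both E arrays above both D arrays and 17 on centred arrays, against 47.9% and 18.6% of all genes, and only *SWI4*, the DNA-binding subunit of the G1 transcription factor SBF, stood 1.8-fold or more higher (6.44 and 6.60 in Sample D, 7.16 and 7.72 in Sample E). The median was 0.43 (centred 0.16). *CDC45*, a helicase subunit of the replication fork, differed by 0.79 and the cyclins *CLN2* and *CLB5* by 0.51 and 0.62. Assembly factors of the ribosome had medians of 0.36 for the small subunit (59 genes) and 0.32 for the large (67 genes), which centring reduced to 0.10 and 0.05. The 126 cytosolic ribosomal protein genes had a median of 0.09, or -0.18 on centred arrays, so the sign of their median depended on the scaling. On plain arrays 15 of them had both E arrays above both D arrays, against 47.9% of all genes. On centred arrays 106 had both E arrays below both D arrays, against 22.3% of all genes. Of 24 genes of the phosphate regulon, 17 had both E arrays above both D arrays and 6 on centred arrays, against 47.9% and 18.6% of all genes, led by the acid phosphatases *PHO11* (0.82) and *PHO5* (0.80), with a list median of 0.40 (centred 0.14).

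**Figure D4:**
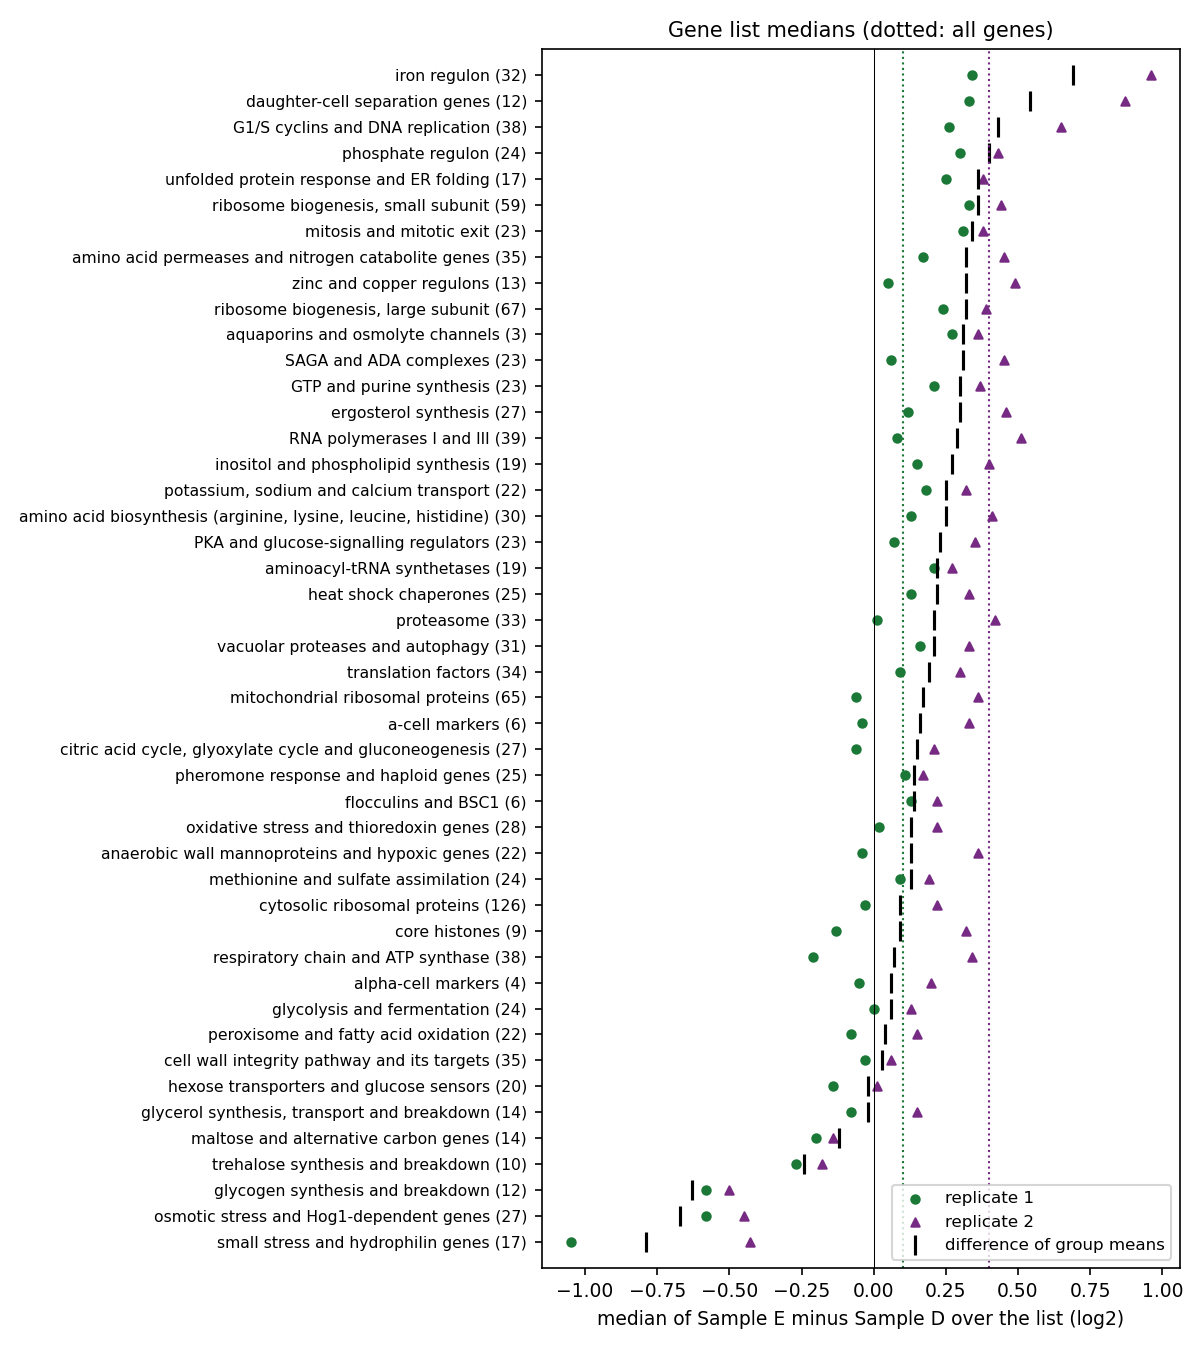
Median difference between Sample E and Sample D on the log2 scale for 46 gene lists, with the number of measured genes in brackets. Circles and triangles are replicates 1 and 2, black bars the difference of group means, and dotted lines the medians of all genes (0.10 and 0.40); the osmotic stress, small stress and glycogen lists lie to the left of 0 in both batches and the iron and daughter-cell lists to the right of each batch's dotted line.

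A second question was whether the late minus early step in recovery differed from the same step in KCl, Sample C minus Sample B. In limma's test of the difference between the steps, no gene passed (0%), with or without the replicate block. The lowest adjusted p was 0.685, and 204 genes had an unadjusted p under 0.05, 482 with the block. Without B1 the test called 841 genes, 797 with the higher difference in recovery and 44 with the lower. B1 and B2 were far apart, with a root mean square difference of 1.04 against 0.32 between the D arrays and 0.45 between the E arrays.

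The sets of arrays behind the steps do not overlap, so their values can be set side by side. At 1.8-fold or more, 456 genes were lower (8.37%) and 124 higher (2.28%) in Sample C than in Sample B. Of the 72 genes lower by that much in recovery, 63 were also lower in KCl, which is 87.5% of the 72 and 13.8% of the 456. Of the 56 genes higher in recovery, 10 were also higher in KCl (17.9% of the 56 and 8.06% of the 124), among them *BSC1*, *SFG1*, *DSE4* and *IZH4*. Among the 72 were *MTH1* and *YKR075C*, which fell short of 1.8-fold in KCl, at -0.74 and -0.66. Across 5449 genes the differences of the steps had a Pearson correlation of 0.50 and a Spearman correlation of 0.40, over genes that are not independent of each other.

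The lists separated in this view. Glycogen genes stood lower in both steps, with medians of -0.63 in recovery and -1.01 in KCl (-1.17 without B1 and -0.30 without B2). Osmotic stress genes did so too, at -0.67 and -1.25 (-1.86 without B1 and -0.34 without B2), and daughter-cell separation genes stood higher in both (0.54 and 0.57). Iron genes had a median of 0.69 in recovery and of -0.36 in KCl, but the latter was -0.74 without B1 and 0.18 without B2, so its direction in KCl rested on 1 array. *ARN2* differed between the steps by 2.26 ± 1.22, *FIT2* by 2.27 ± 1.11 and *FIT1* by 2.22 ± 0.98 (SE; adjusted p = 0.835 for each), so the difference of the steps was not past the test for any iron gene. *BSC1* measured 2.11 in recovery and 2.08 in KCl, but its D values lay below background, so the first value is a lower bound of 1.57 and the steps cannot be ranked for this gene. *YNL040W*, singled out after its values were seen as the gene with the lowest p in this test, was at 1.02 in recovery and -1.31 in KCl.

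**Figure D5:**
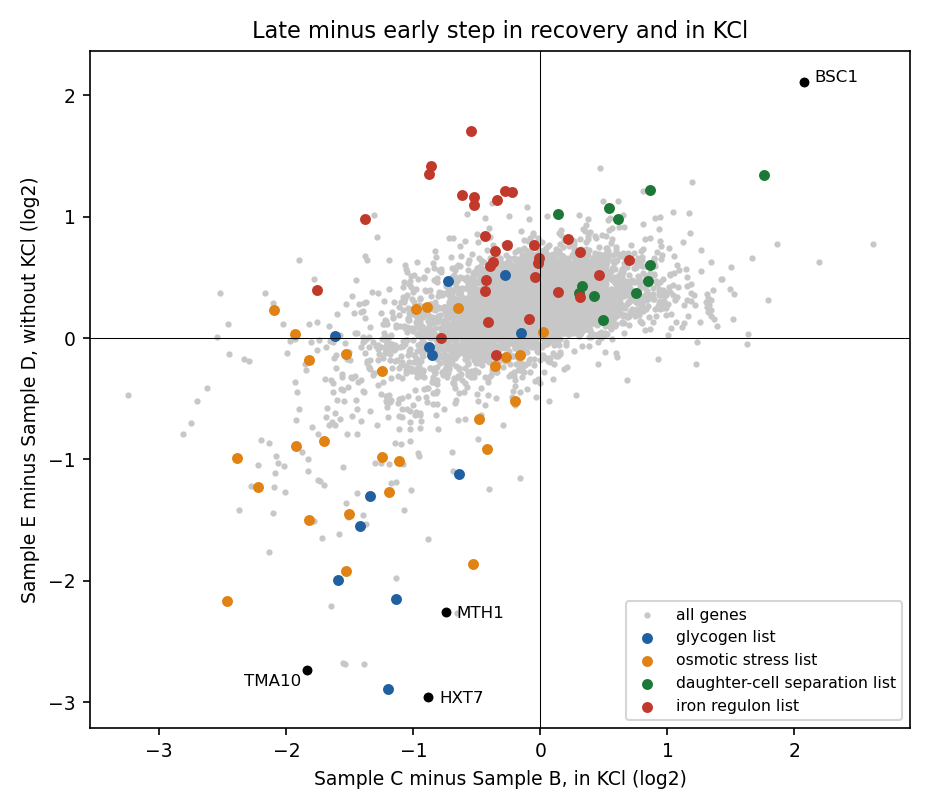
Difference of Sample E minus Sample D (y axis) against Sample C minus Sample B (x axis), both on the log2 scale, for all genes (grey) and for 4 gene lists. Glycogen and osmotic stress genes lie mostly at the lower left, daughter-cell separation genes at the upper right with *BSC1* at a measured 2.08 and 2.11, and iron genes mostly above 0 on the y axis, with a median of -0.36 on the x axis that is 0.18 without B2.

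Where recovery stood against normal growth is shown by levels. The 72 lower genes had median levels of 7.47 and 7.47 in the arrays of Sample A, 10.64 and 11.09 in Sample B, 9.62 and 8.96 in Sample C, 9.37 and 10.004 in Sample D and 7.75 and 8.44 in Sample E. The 56 higher genes had medians of 9.19 and 9.69 in Sample A, 9.07 and 8.82 in Sample D and 9.77 and 10.21 in Sample E. *GSY1* rested at 6.39 and 7.24 in Sample A, lower in each batch than its 6.97 and 8.02 in Sample E, but with overlapping groups. *HXT7* was at 9.87 and 8.83 in Sample A, which also overlapped its values in Sample E. These levels share the D and E arrays with the rule that chose the genes and are given as a description.

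The alpha-cell genes *STE3*, *MF(ALPHA)1*, *MF(ALPHA)2* and *SAG1* read from 12.15 to 13.83 on the 4 arrays, and the 6 a-cell genes, led by *STE6*, from 5.22 to 7.65. *URA3* and *LYS2*, deleted in By4742, read 3.62 to 4.07 and 4.55 to 4.94, below the background level, and *LEU2*, also deleted there, 5.38 to 5.99. *HIS3*, which in that strain carries an internal deletion only, read 10.94 to 11.58. *GCN5* read 7.82 and 8.33 in Sample D and 8.44 and 8.71 in Sample E (0.50 ± 0.42 SE, adjusted p = 0.853). The 3 prime minus 5 prime difference of the control probe sets for *WBP1* was 1.13 and 1.31 in Sample D and 0.84 and 1.10 in Sample E, for *EAF5* 1.08 and 1.00 against 0.83 and 0.91, and for *ACT1* 0.25 and 0.37 against 0.28 and 0.32. *WBP1* and *EAF5* were lower in both E arrays without overlap. The probe set for the 3 prime part of the 18S rRNA read 11.37 and 11.83 in Sample D and 11.88 and 12.12 in Sample E, also without overlap. The part of these differences in the results was not tested.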

How the data were processed

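RNA of the 10 cultures was hybridised to Affymetrix Yeast Genome 2.0 arrays. The deposited values are log2 signals that the authors made with RMA in Affymetrix Expression Console; no software version was given. Of 10928 probe sets, 5498 had a single *S. cerevisiae* symbol in the platform annotation, updated through RefSeq gene names. Where a gene had more than 1 probe set (47 genes), the brightest on average was kept, which left 5449 genes. Another 1746 probe sets of another species served as background, at their 95th percentile on each array.

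Differences were tested with limma 3.58.1 (R 4.3.3) over all 10 arrays with 1 coefficient per group, two-sided, with Benjamini-Hochberg adjustment over 5449 genes. The p-values rest on the spread between the 2 cultures of a group, pooled over all groups fitted. The widely spaced arrays of Sample B therefore enter them as well, and they do not measure the spread within Samples D and E alone. The labels say that replicates were different culture batches, and deviations of same-numbered arrays correlated at 0.22 to 0.52 over 10 pairs of groups. The number was therefore taken as a pairing in the differences given by batch, and in the tests only in the fits with the replicate block. All other SEs and adjusted p-values come from fits that leave the pairing out. On simulated data for this comparison (5449 genes) the fit recovered 20 of 100 genes changed by 1 on the log2 scale, with 5 false calls. Of 100 genes changed by 2 it recovered 61. With the replicate block the numbers recovered were 4 and 53. The simulated arrays were drawn independently, with no effect of the replicate number, so the block had nothing to remove there. On the measured arrays the block instead raised the number of genes with an unadjusted limma p under 0.05, from 213 to 451. Recovery on the measured arrays was not tested, so the simulated data do not rank the fits.

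The 24 named genes are the 12 largest differences in each direction among genes whose groups did not overlap, with 1 sign in both batches and values above background in the higher group. Up to 4 members with the largest difference were named per list (48 lists, 36 names without a value); further members and genes were picked with their values known. Members and lists were chosen with earlier results of these data known. Alternatives covered the scaling, filter, probe set choice, block, samples fitted and each array left out.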

Additional observations from a re-analysis of the deposited data

Results flagged for a closer look

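Among 3470 probe sets with no gene name in the annotation used, which entered no comparison above, 5 differed by 1.8-fold or more between Samples E and D, and 4 of these stood out because they were above their level in normal growth in Sample D. Probe set 1778149_at differed by -1.44 on the log2 scale, with 10.19 and 10.50 in Sample D, 8.33 and 9.48 in Sample E and 6.98 and 8.39 in Sample A. Probe set 1774177_at differed by -1.32 (7.80 and 8.46 against 6.51 and 7.10). Probe set 1770166_at differed by -1.10 (9.98 and 10.46 against 8.96 and 9.27), and probe set 1769544_at by -1.08 (6.95 and 7.99 against 5.85 and 6.92). The groups overlapped in none of these 4, which were picked by the size of the same difference. Over the 5449 genes, 3.08% had both E arrays below both D arrays, and the share over the unnamed probe sets is not given here.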

How the results depend on the processing

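With limma, the count of genes past the threshold between Samples E and D was 0 over all arrays and stayed 0 with another scaling, filter, probe set choice or variance model. It was 1 with the replicate block, 2 without both Sample B arrays, 117 when only the D and E arrays were fitted, and, in fits chosen after seeing the data, 48 without Sample B with the block and 605 for D and E alone with the block. Leaving out each array gave 0 to 2, and 0 to 42 once Sample B was out (18 without either C array, 3 without D2, 1 without E2). For the difference between the steps, leaving out each array gave 0 to 841, and the block 0. The count at 1.8-fold or more higher was 16 after median centring and 16 after quantile normalization, and 29 to 249 with each array left out. The count lower was 116 after centring and 43 to 133 with each array left out. The cause of these shifts was not tested. All 720 values of the 24 named genes under 30 alternatives kept their direction. The rule that chose these genes asked for groups that did not overlap, so leaving out 1 array could not reverse them. Several other settings left the difference of means unchanged, so the count is no check of these genes. Of 48 list medians, 25 changed sign with centring and 11 without E2. Precision is limited by 2 arrays per group, and genes near background, such as *FRE5*, have no usable fold.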

Other observations

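Some genes outside the lists described above were singled out after their values were seen. *GCV1*, of the glycine cleavage system, read 9.48 and 10.16 in Sample D and 10.59 and 11.09 in Sample E (1.02 ± 0.58 SE), and *GCV2* 10.17 and 10.53 against 11.25 and 11.67 (1.11 ± 0.54 SE). *GCV3* and the serine hydroxymethyltransferase gene *SHM2* differed by 0.52 each. Both E arrays lay above both D arrays in these 4 genes, as in 47.9% of all genes. *TEA1* and *MGA2*, which encode transcription factors, differed by 1.13 ± 0.23 and 1.08 ± 0.26, and the rRNA methyltransferase gene *BMT6* by 1.13 ± 0.21 (SE). On the lower side, the hexokinase gene *HXK1* read 11.51 and 12.50 against 9.30 and 11.40 (-1.66 ± 0.72 SE), and the wall protein gene *PIR3* 9.53 and 10.41 against 7.98 and 8.43 (-1.76 ± 0.58 SE). *YPK2*, a kinase gene of the wall and membrane stress pathways, read 9.18 and 10.12 against 8.15 and 8.24 (-1.45 ± 0.32 SE). None of these genes passed the test, the limma adjusted p being 0.853 for each.

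Of 23 PKA and glucose-signalling regulators, 16 stood above 0 and 7 below, with a median of 0.23 beside 0.25 over all genes, and none reached 1.8-fold. Among those farthest from 0, *MSN4*, *YAK1* and *GIS1*, which act in the stress and stationary-phase program, differed by -0.83, -0.75 and -0.68, and *SCH9*, a kinase that promotes growth, by 0.72 (10.12 and 10.12 in Sample D, 10.91 and 10.77 in Sample E). Of 14 maltose and alternative carbon genes, 4 had both E arrays below both D arrays (3.08% of all genes) and 4 both above (47.9% of all genes). On centred arrays 9 were below (22.3% of all genes) and 0 above (18.6% of all genes). The maltose transporter genes *MAL31* and *MAL11* stood lowest at -1.25 and -0.94.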
